A study of Mus musculus with 4 samples.

Results

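The genes described here are 45 genes of the lysosome: soluble enzymes that break down lipids, glycans and proteins, membrane proteins, and subunits of the proton pump that acidifies the compartment. They were chosen by name, and every probe whose RefSeq accession maps to one of them was used, which gave 56 probes. They are 45 of the 21367 genes named on the array. Messenger RNA was measured on 4 one-colour Agilent mouse arrays, 1 for each combination of cell line and medium. The cells were vascular smooth muscle cells grown from 5 aortas of C57BL/6J mice, used at passages 12 to 16, either wild type (WT) or LAMP-2AKO (L2AKO), which lack the lysosomal receptor of chaperone-mediated autophagy. All 4 groups were held for 24 h in DMEM with 5% LPDS, lipoprotein-deficient serum, and the LDL groups also received LDL at 150 µg/ml cholesterol together with bovine lipoprotein lipase at 0.1 U/ml. The labels leave it unsaid if lipase was also added to the control medium. The labels give 1 line per genotype and RNA pooled from a triplicate, so each group was 1 array, differences carry no error between samples, and no test between groups could be made.

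LDL taken up by a cell is delivered to the lysosome, where its cholesteryl esters are hydrolysed and the free cholesterol is passed to the membrane for export. The same compartment degrades sphingolipids, glycosaminoglycans, glycogen, glycoproteins and proteins with hydrolases that work at acid pH. Loss of a single one of these enzymes or transporters causes storage of its substrate in inherited lysosomal storage diseases. The proton pump, or V-ATPase, has a membrane part, V0, through which protons pass, and a peripheral part, V1, which hydrolyses ATP. Transcription factors of the TFEB, TFE3 and MITF family bind an E-box element in the promoters of many of these genes.

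A level is the log2 processed signal minus the 75th percentile of its array, and a difference is one such level minus another. Members are called higher or lower at 1.5-fold or more. A gene is represented by its brightest probe, and for all 45 genes this probe was well above background on all 4 arrays. No spot was saturated. The 399 probes printed 8 times or more gave, where well above background, a standard deviation of 0.06 to 0.08 for the difference of 2 spots of one array, which covers no spread between cultures. Slide 1 carried 3 arrays, and that of L2AKO LDL came from slide 2 with a scan of its own, where 7 of 8 spike-in controls fell outside the range of the arrays on slide 1. Slide and group cannot be told apart in any difference that uses this array.

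Lamp2, the targeted gene, had one probe at 3.68, 3.74, 2.30 and 2.41 in WT control, WT LDL, L2AKO control and L2AKO LDL, and another at 6.29, 6.38, 6.33 and 6.09. The files do not place either probe relative to the deleted part, so neither checks the deletion. Of 11 smooth muscle markers, 7 were above background on each array, while Myh11, Lmod1, Myocd and Des were below it on all 4. Macrophages are rich in lysosomes, and of 18 macrophage markers 10, 9, 12 and 10 were above background in the order given above. The summed macrophage signal, in multiples of the 75th percentile, was 43.3, 37.4, 42.7 and 57.5 on these arrays. Adgre1, Ptprc, Tyrobp, C1qc, Mrc1 and Cd163 were below background on all arrays, whereas Trem2 was 3.39 and Cd68 1.85 log2 units higher in L2AKO than in WT without LDL. Of the 10 macrophage markers measured on both of these arrays, 3 were at least 1.5-fold higher and 2 lower, and 5 lay below 0, down to -1.33. The summed signal of 11 smooth muscle markers was 233.1, 207.6, 183.7 and 174.4, and that of 10 adventitial fibroblast markers was 419.6, 357.9, 313.0 and 268.2. Such sums include markers below background. Of the 7 smooth muscle markers measured on both control arrays, 2 were at least 1.5-fold higher in L2AKO and 3 lower, with a median of 0.28. Within the fibroblast list Serpinf1 and Pi16 were 4.28 and 4.14 higher in L2AKO without LDL, while the list's sum was lower. Of the 9 fibroblast markers measured on both control arrays, 5 were at least 1.5-fold higher in L2AKO and 3 lower, with a median of 1.04. The sum of 8 mesothelial and epithelial markers was 62.9, 58.2, 19.3 and 22.4, with Lrrn4 at 3.40 and Cdh1 at -3.14 between the lines, and that of 9 endothelial markers was 5.77, 4.63, 4.54 and 5.56, with 3 above background on each array. The part of these markers in the line differences below was not tested. In cultures measured in bulk, fewer cells of a type and less RNA per cell cannot be told apart.

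The first comparison asked how lysosomal genes differed between the lines without LDL, on a single slide. The lines differed gene by gene. Legumain, the cholesterol carriers Npc1 and Npc2, 6 other hydrolases and a rotor subunit of the proton pump were 0.65 to 1.19 log2 units higher in L2AKO. Cln3, Ids, Gm2a and Smpd1 were lower, at -1.06 to -2.01. In all, 14 of 45 genes (31.1%) were at least 1.5-fold apart, against 31.7% of the 12594 genes measured on both arrays, so the share was that of the background. By direction, 10 genes (22.2%) were higher against a background of 15.2%, and 4 genes (8.89%) were lower against 16.6%. The median difference of the 45 genes was 0.11, beside -0.01 over all genes. Asah1, at 0.65, was the smallest difference counted and Scarb2, at 0.57, the largest one left out.

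**Figure D1:**
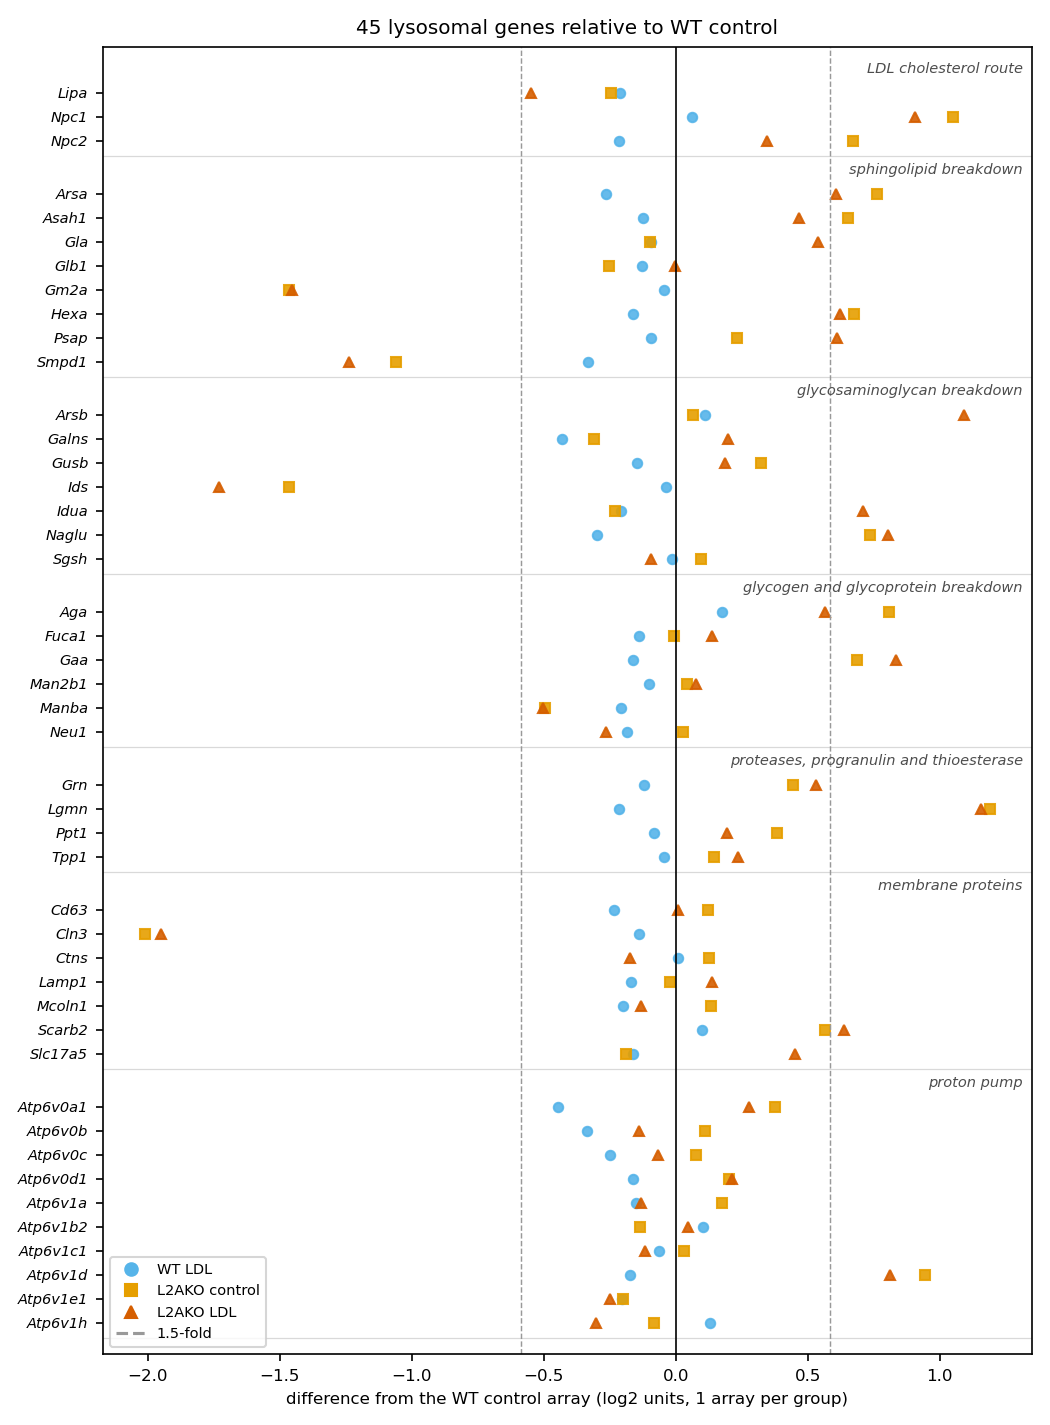
Level of each of the 45 genes minus its level on the WT control array (x axis, log2 units), for the WT LDL, L2AKO control and L2AKO LDL arrays, grouped by pathway (y axis); 1 array per group, dashed lines at 1.5-fold. WT LDL points lie between -0.45 and 0.18, while the L2AKO points spread from -2.01 to 1.19 without LDL.

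Along the route of LDL cholesterol, both Npc genes were higher in L2AKO and the lipase was not. Npc1, the membrane protein that moves cholesterol out of the lysosome, had levels of -0.41 and -0.35 in the WT cultures without and with LDL, and of 0.64 and 0.50 in the L2AKO cultures. Both L2AKO arrays were thus above both WT arrays, and the line difference without LDL was 2.07-fold. No share over all genes is set beside such a separation of the lines, here or for the genes below. Npc2, the soluble protein that hands cholesterol to Npc1, read 5.45, 5.23, 6.12 and 5.80 in the same order, a difference of 0.67 without LDL. Lipa, the acid lipase that frees cholesterol from its esters, read 3.31, 3.1, 3.06 and 2.76, with a line difference of -0.25 that did not reach 1.5-fold.

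Among 8 genes of sphingolipid breakdown, 3 were higher and 2 lower in L2AKO without LDL. Arsa, which removes sulfate from sulfatide, read 5.25 and 4.98 in WT control and WT LDL against 6.01 and 5.86 in L2AKO control and L2AKO LDL (line difference 0.76 without LDL). Hexa, a subunit of beta-hexosaminidase, read 5.51 and 5.34 against 6.18 and 6.13 (0.68). Asah1, the acid ceramidase, read 3.80 and 3.67 against 4.45 and 4.26 (0.65), and its second probe differed by 0.57. For these genes the lower L2AKO array was above the higher WT array. They were named for their line difference, so this separation is no separate result.

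Gm2a and Smpd1 stood on the other side. Gm2a encodes the activator that presents the ganglioside substrate to hexosaminidase, and its levels were 2.62, 2.58, 1.16 and 1.17 in WT control, WT LDL, L2AKO control and L2AKO LDL, or 2.76-fold lower in L2AKO without LDL. A dimmer probe of Gm2a differed by only -0.46, so the size of this difference depended on the probe. Smpd1, the acid sphingomyelinase, read 5.31, 4.98, 4.25 and 4.07, a difference of -1.06 without LDL. The galactosidases Gla and Glb1 differed by -0.10 and -0.25. Psap, the precursor of the saposins, read 5.47, 5.37, 5.70 and 6.08, a difference of 0.23.

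Enzymes of glycosaminoglycan breakdown went both ways as well, with 1 of 7 higher and 1 lower. Ids, which removes sulfate from iduronate residues, read 2.01 and 1.97 in WT without and with LDL against 0.54 and 0.28 in L2AKO, and was 2.76-fold lower in L2AKO without LDL. Naglu, which acts on heparan sulfate, read 3.36, 3.06, 4.10 and 4.17 and was 1.66-fold higher. The lines did not overlap for either gene. Sgsh, the heparan sulfamidase, read 7.18, 7.17, 7.28 and 7.09 and differed by 0.09. Gusb, the beta-glucuronidase, differed by 0.32, and Galns, a sulfatase of keratan sulfate, by -0.31. Gusb had 10 spots per array, whose standard deviation was at most 0.07. Idua, the iduronidase that follows Ids, had a brightest probe at -0.23 and another at 0.75, so no direction is given for it.

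Of 6 enzymes of glycogen and glycoprotein breakdown, Gaa and Aga were higher and none lower. Gaa, the acid alpha-glucosidase that digests glycogen, read 7.15, 6.99, 7.84 and 7.99 in WT control, WT LDL, L2AKO control and L2AKO LDL, or 1.61-fold higher in L2AKO without LDL. Its dimmer probe, at -2.13, -1.02, -0.36 and -0.48, differed by 1.76. Aga, which cleaves the bond between asparagine and glycan, read 3.43, 3.60, 4.24 and 3.99, and its 9 or 10 spots per array had standard deviations of 0.02 to 0.04. Both genes were above their WT levels on both L2AKO arrays. Manba, the beta-mannosidase, was 1.41-fold lower. Fuca1, a fucosidase, Man2b1, a mannosidase, and Neu1, a sialidase, differed by -0.01, 0.04 and 0.03. A second, dim probe of Fuca1 was above background in WT LDL only, at least 2.32-fold above its level in L2AKO LDL.

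The protease Lgmn had the largest positive difference of the 45 genes without LDL. Legumain cuts after asparagine and processes other lysosomal enzymes, and its gene read 4.27 and 4.06 in WT without and with LDL against 5.46 and 5.43 in L2AKO, or 2.28-fold higher in L2AKO. Grn, the precursor of granulins, read 5.50, 5.38, 5.95 and 6.03, which was 0.44 higher without LDL and below 1.5-fold. Ppt1, a thioesterase, and Tpp1, a tripeptidyl peptidase, differed by 0.38 and 0.15. All 4 genes of this group had positive differences, as did 64.4% of the 45 genes and 48.9% of all genes.

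Among the 45 genes, lysosomal membrane proteins other than Npc1 stayed below 1.5-fold without LDL, apart from Cln3. Cln3, the membrane protein lost in juvenile neuronal ceroid lipofuscinosis, read 1.48, 1.34, -0.53 and -0.47 in WT control, WT LDL, L2AKO control and L2AKO LDL. It was 4.03-fold lower in L2AKO without LDL, the largest difference among the 45 genes. A second probe of Cln3 differed by -0.91, and the remaining probe was above background in WT only, where it was at least 1.58-fold higher than in L2AKO control. All 3 probes thus lay on the same side, with differences of unequal size. Lamp1 and Cd63, abundant glycoproteins of the lysosomal membrane, differed by -0.02 and 0.12. Lamp1 read 8.25, 8.08, 8.22 and 8.38, so the lines overlapped. Cd63 read 8.52, 8.29, 8.64 and 8.53, with L2AKO LDL barely above WT control. Mcoln1, a cation channel, and Ctns, the cystine exporter, each differed by 0.13. Scarb2, which carries beta-glucocerebrosidase to the lysosome, read 2.50, 2.61, 3.07 and 3.14 and was 1.48-fold higher.

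Of 10 subunits of the proton pump 1 passed 1.5-fold, and their median difference was 0.09. Atp6v1d, part of the rotor that couples ATP hydrolysis to proton transport, read 4.71 and 4.54 in WT without and with LDL against 5.65 and 5.52 in L2AKO, or 1.92-fold higher in L2AKO without LDL. The other 5 V1 subunits stayed below 1.5-fold, and those of the catalytic ring, Atp6v1a and Atp6v1b2, differed by 0.18 and -0.13. The stalk and regulatory subunits Atp6v1c1, Atp6v1e1 and Atp6v1h differed by 0.03, -0.20 and -0.08. All 4 V0 subunits had small differences above 0, where 64.4% of the 45 genes and 48.9% of all genes lay. The V0 differences ran from 0.08 for the proteolipid Atp6v0c to 0.38 for Atp6v0a1. Atp6v0a1 read 3.39, 2.94, 3.76 and 3.66 in WT control, WT LDL, L2AKO control and L2AKO LDL.

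**Figure D2:**
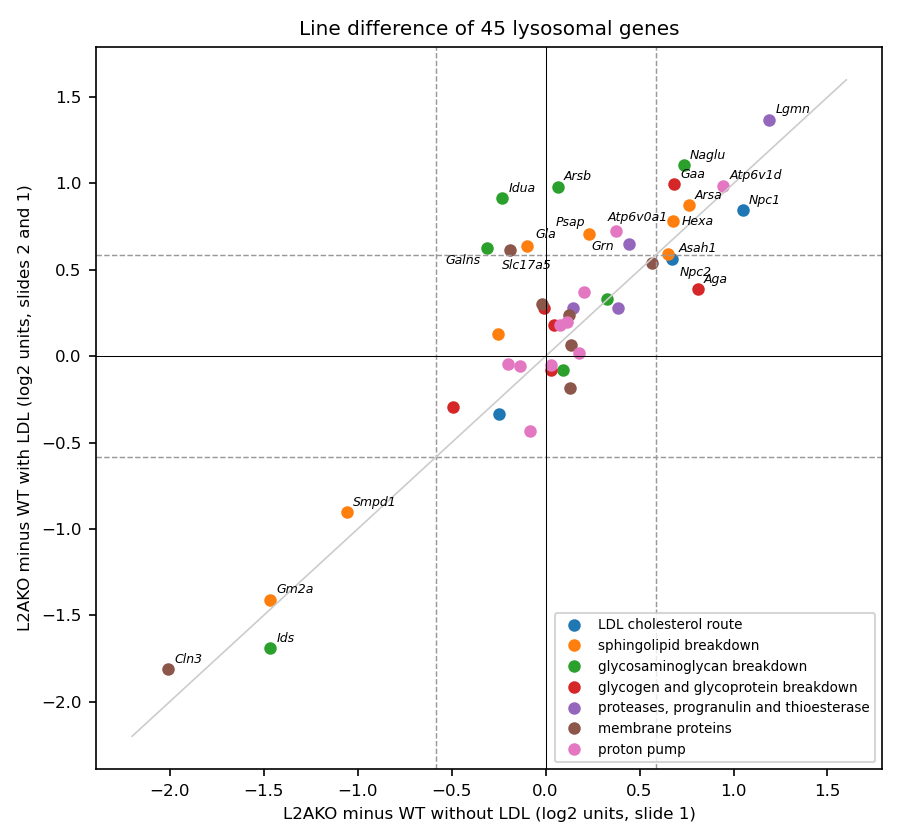
Difference between L2AKO and WT for the 45 genes without LDL (x axis, log2 units, 1 slide) and with LDL (y axis, log2 units, 2 slides), coloured by pathway, dashed lines at 1.5-fold and the diagonal in grey. Cln3, Ids, Gm2a and Smpd1 lie at the lower left, and Idua, Arsb, Galns, Gla and Slc17a5 lie above the upper dashed line at x values near or below 0.

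The second comparison set the lines against each other with LDL, across slides. Cln3 (-1.81), Ids (-1.69), Gm2a (-1.41) and Smpd1 (-0.90) were again lower in L2AKO, and Lgmn (1.37), Naglu (1.10), Gaa (1.00), Atp6v1d (0.99), Arsa (0.87), Npc1 (0.84), Hexa (0.79) and Asah1 (0.59) again higher. The second probe of Gm2a differed by only -0.15 with LDL, and that of Cln3 by -1.23. Of the genes called without LDL, 8 of 10 higher genes (80.0%) were also higher with LDL, where they made up 8 of 16 (50%). The same shares over all genes were 78.8% and 69.7%. All 4 lower genes were the same in both media, where the shares over all genes were 83.8% of those lower without LDL and 71.0% of those lower with LDL. These comparisons share no array, but they share the cell lines. In all, 20 of 45 genes (44.4%) were at least 1.5-fold apart with LDL, against 37.4% of 12936 genes. Higher genes numbered 16 (35.6%, background 16.9%) and lower genes 4 (8.89%, background 20.5%), with a median of 0.28 beside -0.05 over all genes. On their brightest probes Arsb, Atp6v0a1, Galns, Gla, Grn, Idua, Psap and Slc17a5 were called higher with LDL and not without it. The second probe of Slc17a5 was at -0.70 with LDL, 1.62-fold lower, and that of Arsb at -0.36. The second probe of Idua was higher in both media, by 0.75 and 0.68. For Arsb, Gm2a and Slc17a5, 3 of 9 genes, the probes were over 1.5-fold apart in this comparison. Npc2, at 0.56, lay just below 1.5-fold.

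The next comparison asked how the genes responded to LDL in WT cells, on 1 slide. None of the 45 genes reached 1.5-fold, against 3.71% of 12978 genes (1.25% higher and 2.46% lower), and differences ran from -0.45 for Atp6v0a1 to 0.18 for Aga. In all 38 of 45 genes (84.4%) were below 0, against 60.7% of all genes, with a median of -0.15 beside -0.05. Depending on the scaling and source of the values, 31 to 38 of the 45 genes were below 0. The 60.7% belongs to the main scaling, and no share of all genes is set beside the other counts. With quantile normalisation, normexp before it and the authors' values, 32, 31 and 31 members were below 0. The median of all genes was then 0.006, 0.004 and 0.001. The members' median minus that of all genes was -0.071, -0.074 and -0.074, against -0.10 in the main setting. No replicate array bears on differences as small as these WT responses.

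Members with the largest WT responses were spread over the pathways. The V0 subunits Atp6v0a1 and Atp6v0b, a membrane arm and a proteolipid of the pump, differed by -0.45 and -0.34. Among the hydrolases, Galns, Smpd1 and Naglu differed by -0.43, -0.33 and -0.30. For the genes that handle LDL cholesterol, the responses were -0.21 for Lipa, 0.06 for Npc1 and -0.22 for Npc2. All 8 genes of sphingolipid breakdown were below 0, as were 8 of 10 subunits of the pump (80.0%). Below 0 lay 84.4% of the 45 genes and 60.7% of all genes.

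**Figure D3:**
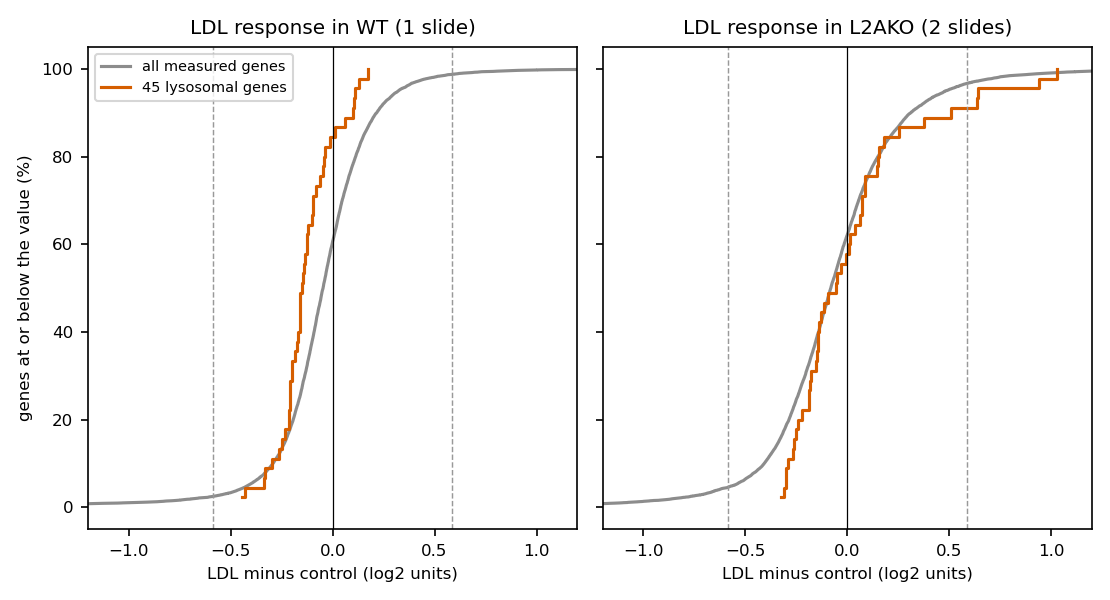
Cumulative share of genes (y axis, %) at or below a given LDL response (x axis, log2 units, LDL minus control), for the 45 lysosomal genes and for all measured genes, in WT cells on the left and L2AKO cells on the right; dashed lines at 1.5-fold. In WT the curve of the 45 genes lies left of that of all genes except at its lower end, with medians of -0.15 and -0.05, while in L2AKO the medians are -0.05 and -0.08.

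The same question in L2AKO cells compared arrays of different slides. Here 4 of 45 genes (8.89%) were higher with LDL, against 3.34% of 13008 genes higher and 4.55% lower (7.89% in all), and no member was lower at 1.5-fold. The 4 genes were Arsb, Idua, Slc17a5 and Gla. Arsb, a sulfatase of dermatan sulfate, read -2.87, -2.75, -2.80 and -1.77 in that order of arrays. The choice of this probe as the brightest used its mean over all arrays, that of L2AKO LDL included. On WT control and L2AKO control the other probe was brighter, at -2.41 and -2.74. Without the L2AKO LDL array that other probe would have represented the gene. On it Arsb was not called here, between the lines with LDL or in the difference of responses. At this low level the difference of 2 repeated spots had a standard deviation of 0.19 to 0.22. Idua read 4.59, 4.38, 4.36 and 5.30, and Slc17a5, the sialic acid exporter, read 4.58, 4.42, 4.39 and 5.03. Gla, the alpha-galactosidase, read 7.30, 7.21, 7.21 and 7.85. In each case the L2AKO LDL array alone stood above the other 3.

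Other probes of these genes read differently. The second probe of Arsb was at -2.41, -2.78, -2.74 and -3.14, that of Idua at 0.80, 0.93, 1.55 and 1.62, and that of Slc17a5 at -0.79, -0.78, -1.16 and -1.48. With LDL in L2AKO the second probe of Idua differed by 0.07 against 0.94 for the first, that of Slc17a5 by -0.32 against 0.64, and that of Arsb by -0.40 against 1.03. Every one of these probes was well above background on all arrays. Gla had a single probe, whose difference of 0.64 became 0.45 after quantile normalisation and 0.41 in the authors' deposited values. Among the 10 genes with several probes, 9 had at least 2 above background on all arrays, and for 3 of these 9 the probes differed by 1.5-fold or more in the LDL response of L2AKO. Without LDL, 4 of the 9 genes had probes that differed this much between the lines, namely Cln3, Gaa, Gm2a and Idua. Cln3, Gaa and Gm2a kept their sign on both probes. In WT the probes disagreed by 1.5-fold or more for 1 gene, Gaa, at -0.16 and 1.11.

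**Figure D4:**
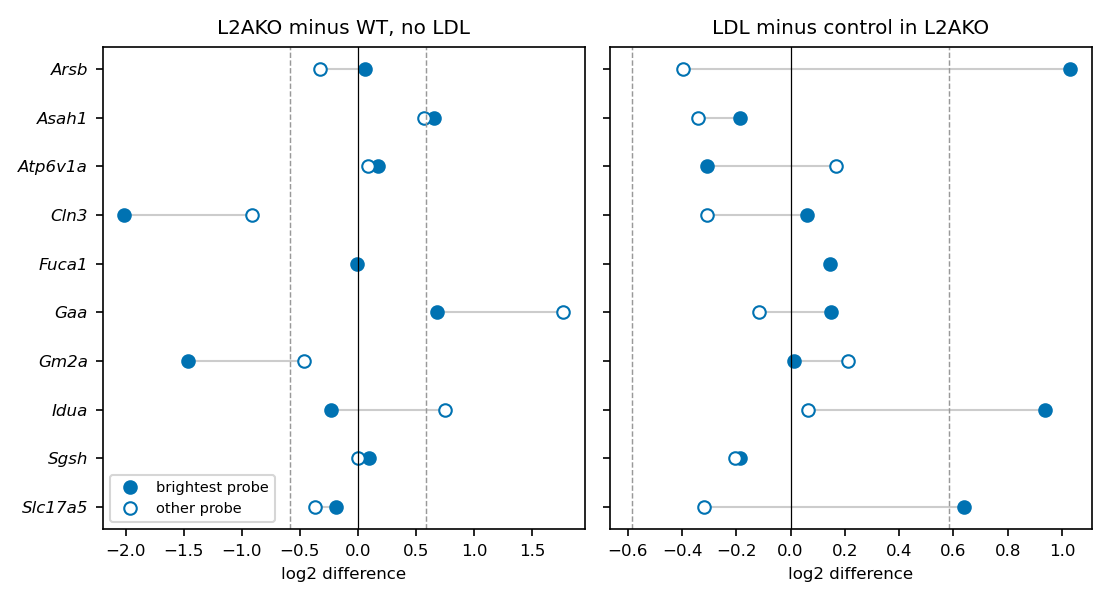
Differences (x axis, log2 units) on each probe above background on all arrays for the 10 genes with several probes (y axis), as L2AKO minus WT without LDL on the left and LDL minus control in L2AKO on the right; filled points mark the brightest probe and dashed lines 1.5-fold. On the right, Arsb, Idua and Slc17a5 pass 1.5-fold on the filled point only.

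The responses of the lines were set against each other last. The LDL response of L2AKO minus that of WT was at least 1.5-fold for 5 of 45 genes (11.1%), all higher, beside 8.76% of 12492 genes in either direction, 4.77% higher and 3.99% lower. These were Idua (1.15), Galns (0.94), Arsb (0.92), Slc17a5 (0.80) and Gla (0.73), of which Idua, Arsb and Slc17a5 again rested on 1 of 2 probes. The second probes gave -0.07 for Idua, -0.03 for Arsb and -0.33 for Slc17a5. Gaa, at 0.31 on its brightest probe, was at -1.22 on its second probe, 2.33-fold lower. Galns had 1 probe, at 2.45, 2.02, 2.14 and 2.65 in WT control, WT LDL, L2AKO control and L2AKO LDL. The median over the 45 genes was 0.11, beside -0.03 over all genes. Across the pump this difference stayed between -0.35 for Atp6v1h and 0.35 for Atp6v0a1.

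Further genes of the lysosome were taken from lists of other hydrolases, membrane proteins, pump subunits, sorting factors and regulators. Their counts stand beside 15.2% of all genes higher and 16.6% lower. Without LDL, 8 of 29 other hydrolases and activators were higher in L2AKO and 1 lower. Galc, which degrades galactosylceramide, was 1.82 higher, though dim in WT (-3.55), and the hyaluronidase Hyal1 was at -1.81. Of 25 other membrane proteins 5 were higher and 1 lower, led by the peptide transporter Abcb9 (2.32) and the two-pore channel Tpcn1 (1.62). Of other pump subunits and accessories 1 of 15 was higher and 4 lower, with a median of -0.31, and the assembly factor Vma21 at -1.01. Mannose 6-phosphate tagging and sorting genes had 2 of 25 higher and 1 lower. Among 20 measured genes of lysosomal biogenesis and nutrient sensing, 2 were higher and none lower.

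Mitf was the regulator with the largest difference. It encodes a transcription factor of the TFEB family and read 0.53 and 0.26 in WT without and with LDL against 2.89 and 2.26 in L2AKO. Both L2AKO arrays stood above both WT arrays, by 2.37 log2 units without LDL and 2.00 with LDL. Its relatives, named after their values were seen, had smaller differences. Without LDL Tfeb differed by -0.08 and Tfe3 by -0.38 on its brightest probe. With LDL Tfeb differed by 0.41, on the other side of 0, and Tfe3 by -0.47.

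**Figure D5:**
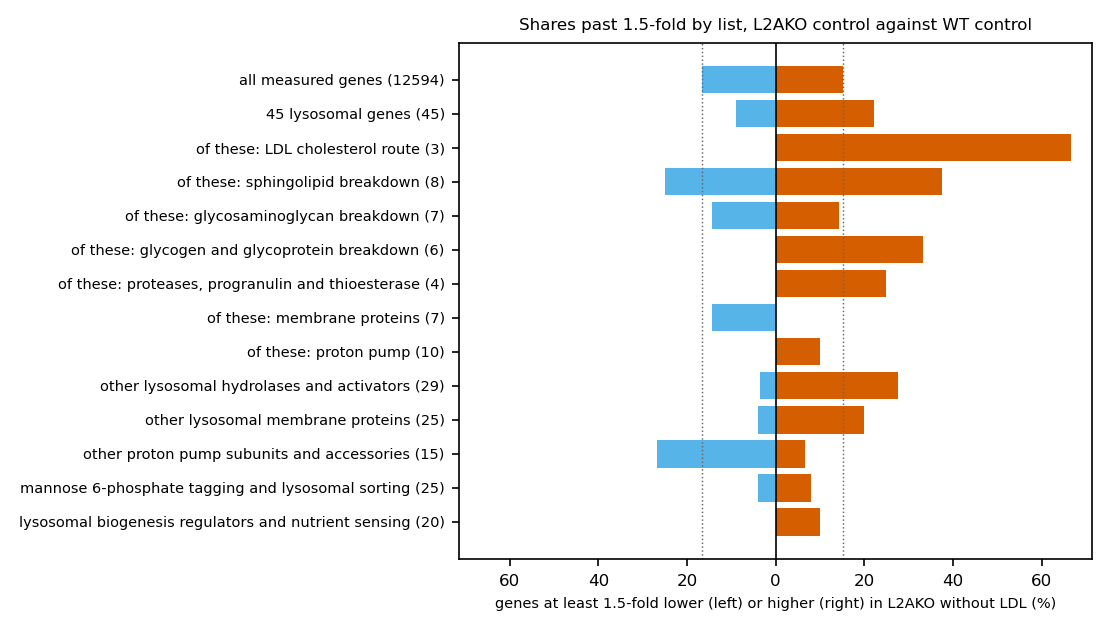
Share of genes (x axis, %) at least 1.5-fold lower (left) or higher (right) in L2AKO than in WT without LDL, for all measured genes, the 45 lysosomal genes, their pathways and 5 further lists (y axis, number measured in parentheses); dotted lines mark the shares of all genes, 16.6% lower and 15.2% higher. The 45 genes have 8.89% lower and 22.2% higher.

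Promoter sequences were looked up because an E-box element is known from many lysosomal genes, and 3 are printed to set it beside the values. RefSeq promoters of the build GRCm38.p6, from 250 bases before to 50 after a start, were at hand for 38 of the 45 genes. The letters CACGTG, which read the same on both strands, occurred in 13 of these 38 (34.2%), against 11.8% of measured genes with a promoter and 8.09% of all genes. In the other lysosomal lists it occurred in 23 of 99 genes with a promoter (23.2%). A gene with several promoters was counted if any of them held the letters. The longer TCACGTGA, which contains CACGTG, occurred in 5 (13.2%) against 2.21% and 1.12%, and in 14.1% of the other lysosomal genes. A match is a description of the letters in the window and shows no binding. Cln3, the gene with the lowest difference, Naglu, a higher one, and Lamp1, which was level between the lines, all hold these letters. The match is in capitals, and in the second match of Cln3 so are the letters of the longer form and 1 further letter on either side, with each sequence 5′ to 3′ on the strand of the gene, namely chr7:126583187-126583486 on the minus strand for Cln3, chr11:101069844-101070143 on the plus strand for Naglu and chr8:13158911-13159210 on the plus strand for Lamp1.
Cln3: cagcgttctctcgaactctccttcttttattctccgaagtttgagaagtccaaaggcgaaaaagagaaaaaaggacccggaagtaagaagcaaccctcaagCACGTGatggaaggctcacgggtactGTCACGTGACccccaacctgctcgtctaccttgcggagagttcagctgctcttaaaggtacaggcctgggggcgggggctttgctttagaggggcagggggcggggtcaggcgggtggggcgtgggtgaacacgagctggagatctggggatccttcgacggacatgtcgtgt
Naglu: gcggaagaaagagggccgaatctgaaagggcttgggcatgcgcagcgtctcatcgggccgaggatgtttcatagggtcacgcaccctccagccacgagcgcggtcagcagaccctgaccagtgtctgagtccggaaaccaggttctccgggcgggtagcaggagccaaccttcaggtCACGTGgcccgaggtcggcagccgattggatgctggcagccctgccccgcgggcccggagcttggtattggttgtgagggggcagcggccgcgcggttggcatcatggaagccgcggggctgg
Lamp1: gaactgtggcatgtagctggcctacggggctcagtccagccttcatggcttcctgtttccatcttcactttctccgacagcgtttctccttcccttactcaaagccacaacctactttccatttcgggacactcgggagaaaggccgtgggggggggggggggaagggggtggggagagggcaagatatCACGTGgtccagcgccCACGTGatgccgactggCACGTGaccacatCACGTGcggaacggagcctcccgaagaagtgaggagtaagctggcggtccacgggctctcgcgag
Cln3 held 2 copies, Naglu 1 and Lamp1 4, in these windows, while a second RefSeq promoter of Cln3 held none. Their line differences without LDL were -2.01, 0.73 and -0.02. The 13 genes with CACGTG had a median line difference of 0.13 without LDL, with 4 higher and 1 lower, and the 25 without it had a median of 0.08, with 3 higher and 3 lower. In the WT response to LDL both sets had a median of -0.16. Both sets held genes higher, lower and level between the lines.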

How the data were processed

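Each of the 4 arrays was deposited as a scanner file that gives every spot's intensity on a linear scale, which per the file headers was background-subtracted in Feature Extraction 10.7.3.1 from Agilent. A table of the authors' own values, deposited too, is likewise on a linear intensity scale. RMA and oligo appear in the submitters' processing notes, though the values are not logarithmic, and how arrays were scaled there stays unknown. Column medians were 57.6, 57.6, 57.5 and 57.4.

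Control spots and outlier spots were left out, log2 values were averaged over a probe's spots, and each array's 75th percentile over 55679 probes was subtracted. Probes were named through RefSeq accessions in a table of GRCm38.p6 (28330 probes, 21367 genes), while the files name another build. A gene entered a comparison if, on each array used, its brightest probe was well above background. Each group had 1 array, so there is no test, and the number of arrays limits the precision. The alternatives were 3 other scalings, normexp (offset 50, on the median spot signal) with quantile normalisation, the deposited values, the mean over probes and 3 filters for dim probes. The dimmest probe was added after the data were seen. The members, pathways and lists were chosen with earlier results of these data known. Levels are given for genes at least 1.5-fold apart in a comparison, those with disagreeing probes and 5 with bright probes, and also for Lipa and Scarb2, which were added after their values were seen. At most 2 genes of another list at least 2-fold apart without LDL are named. The steps were tested on simulated data. R 4.3.3, limma 3.58.1, Python 3.11.15, numpy 2.4.6, pandas 2.3.3 and matplotlib 3.10.9 were used.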

Additional observations from a re-analysis of the deposited data

Results flagged for a closer look

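For 4 of the 45 genes the LDL responses of the lines had opposite signs and differed by at least 1.5-fold. The share of all genes that met both conditions was not computed, so this count has no background. A difference of at least 1.5-fold alone was met by 11.1% of the 45 genes and 8.76% of all genes. The difference was not tested, since each group had 1 array. Idua differed by 1.15 between the responses, from -0.21 in WT to 0.94 in L2AKO. Galns differed by 0.94, from -0.43 to 0.51. For Slc17a5 the value was 0.80, from -0.16 to 0.64, and for Gla it was 0.73, from -0.10 to 0.64. All 4 values use the array on the second slide, and the second probes of Idua and Slc17a5 gave -0.07 and -0.33.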

How the results depend on the processing

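Of 43 member differences of at least 1.5-fold, 387 values were computed under 9 other settings, of which 366 stayed past 1.5-fold, 21 did not, and 1 turned sign. The latter was Slc17a5 between the lines with LDL, at -0.043 with the mean over its probes. The 21 values belong to Gla (9, under quantile normalisation, normexp and the authors' values), Arsb, Idua, Slc17a5 and, once, Asah1, and all use the L2AKO LDL array. The 3 filters on dim probes could not move the members' values, because all 45 brightest probes passed them. Nor could the mean over probes move the 35 genes with 1 probe. The 366 therefore includes values that were bound to stay. By setting, the 21 values were 9 under the mean over probes, 6 under normexp, and 3 each under quantile normalisation and the authors' values. With the mean over probes, 1 gene was called in the LDL response of L2AKO and 2 in the difference of responses. With normexp 3 genes were called in the difference of responses. With the dimmest probe the counts were 1 for LDL in WT, 1 for LDL in L2AKO and 3 for the difference of responses. Median scaling moved the median of all genes by 0.11 for LDL in L2AKO, 0.09 between the lines without LDL, 0.20 with LDL and 0.11 in the difference of responses, and put the members' medians at 0.053, 0.20, 0.48 and 0.22. Relative to all genes these medians were 0.03, 0.13, 0.33 and 0.14 under both scalings. They could not differ, because each scaling subtracts 1 value per array from every gene. With quantile normalisation they were 0.008, 0.15, 0.35 and 0.08, and with normexp before it 0.008, 0.12, 0.30 and 0.06. Scaling over probes above background on all arrays gave 0.043 for LDL in L2AKO. The members' median for LDL in WT was -0.065 with quantile normalisation, -0.070 with normexp before it, and -0.073 for the values the authors deposited. The share of all genes at 1.5-fold for LDL in WT was 1.63% after normexp, 1.94% in the authors' deposited values, 7.62% where either array sufficed for the filter and 11.7% unfiltered. For LDL in L2AKO these shares were 3.70%, 4.39%, 12.0% and 34.4%, and for the difference of responses 4.27%, 5.39%, 17.7% and 36.0%. Between the lines with LDL the share of all genes was 41.9% where either array sufficed and 54.1% unfiltered, so that the members' 44.4% was above or below it depending on the filter. The cause of these shifts was not tested. No paired analysis was possible because each group had 1 array.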
